A study of Arabidopsis thaliana with 2 samples.

Results

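The 126 probe sets described here were the bright, steady probe sets of dark-grown Arabidopsis seedlings whose genes the array annotation knows only by a locus name. A member named 1 nuclear gene by its locus, had a linear signal of at least 4000 on both arrays, and had a ratio of red light over dark between 1/1.5 and 1.5. The members stood for 126 genes, out of 11933 locus-named nuclear probe sets and 22810 probe sets in all. The members were chosen by these same signals, so their levels and ratios are given as a description, with no test. Probe sets differ in how well they bind their target, so a bright probe set does not by itself show an abundant transcript. That the members are the most abundant transcripts could therefore not be checked, and they are called bright here.

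Whole seedlings of the Landsberg erecta accession grew for 7 days in darkness at 23 °C, after 2 days of cold and 2 h of white light given to the seeds. A pool of 5 seedlings then received 1 h of red light with a transmission maximum of 630 nm at about 10 µmol per square metre and second, and another pool of 5 seedlings stayed dark for 1 h. Each pool gave 1 array, from 20 ng of amplified total RNA, so there were no replicates, and batch and light cannot be told apart. In whole seedlings, fewer cells of a type and less RNA per cell cannot be told apart either.

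A dark-grown seedling lengthens its hypocotyl and keeps its cotyledons closed while it lives on stored or supplied carbon. Red light, sensed by phytochromes, starts the change to green growth. Protein synthesis in the cytosol rests on the ribosome, whose small and large subunits contain many small basic proteins. In Arabidopsis each of these proteins is encoded by a small family of very similar genes. A probe set for 1 gene of such a family may therefore also bind the RNA of another, which was not tested here.

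Over all probe sets, the medians were 203 with red light and 191 in darkness. The highest of 27 bacterial background probe sets reached 20.5 and 11.5, far below every member. Of 10 marker genes of seed, root, etiolated and green tissue, 4 lay within 1.5-fold, 4 were lower after red light and 2 were higher. These counts are on the deposited scale and were not made under the other scalings described below. Over the 6224 locus-named probe sets with a geometric mean signal of at least 102, 20.8% were past 1.5-fold. Isocitrate lyase (ICL), an enzyme of the glyoxylate cycle that serves the use of stored oil, was among the lower ones, with signals of 856 after red light against 4352 in the dark. PORB, a protochlorophyllide reductase counted here under etiolated tissue, was lower too, with 2922 and 5189. The seed genes AtLEA4-1 and LEA18 were the other lower ones, with 325 and 703 and with 508 and 918. The higher ones were LHCB4.2, with 5328 and 2035, and LHCB4.3, with 1221 and 452, both for antenna proteins of photosystem II. Another antenna gene of the same kind, LHCB4.1, was almost equal, with 8945 and 9074. Also within 1.5-fold were the seed genes M17, with 5077 and 4548, and PAP85, with 83 and 112. The root gene PYK10, with 7781 and 9764, was within it as well.

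The members were part of a larger bright set. Of 433 non-control probe sets with at least 4000 on both arrays, 416 were steady within 1.5-fold. Of these, 227 are not listed in the annotation used here, 39 named 1 gene by a symbol, and 24 named several genes. The functions below thus cover only the members, of which 20 have no role given, and not the rest of the 416.

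Among the 128 locus-named probe sets with at least 4000 on both arrays, 2 were past 1.5-fold, or 1.56%, both lower after red light. Over all 6224 measured locus-named probe sets the share past 1.5-fold was 20.8%, with 12.4% higher and 8.4% lower after red light, where measured means a geometric mean signal of at least 102. Since the ratio was part of the rule, nothing follows from these shares for the members. The 2 left out were AT1G12080, with signals of 4779 after red light against 7426 in the dark, and AT1G01490, with 4089 and 6663. A further 62 locus-named probe sets reached 4000 on 1 array only, and 17 of them were past 1.5-fold, 13 lower and 4 higher after red light. These counts are on the deposited scale. Reaching the limit on 1 array only itself favours probe sets that differ between the arrays, so nothing follows from them.

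The signal limit fell in a dense range. Just inside it lay AT5G47890, a complex I subunit gene, with signals of 4004 after red light against 4313 in the dark. Also just inside were AT4G02480, an AAA-type ATPase gene, with 4035 and 4683, and AT2G37660, of the Rossmann-fold proteins, with 4057 and 4942. Just outside it lay AT1G76200 with 4112 and 3997, AT4G09830 with 3979 and 5653, and AT4G16720, a ribosomal protein L15 gene, with 4750 and 3950. With centring on the hybridization controls, 15 of the 126 members failed the rule.

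Over the 126 members the red light signal ran from 4004 to 13528 with a median of 5696, and the dark signal from 4102 to 15866 with a median of 6144. The median log2 ratio was -0.16, beside -0.0013 over the 6224 measured locus-named probe sets, with 34 members above 0 and 92 below. That split did not hold under other scalings: 65 members were above 0 after loess, 63 after quantile normalization and 90 with centring on the hybridization controls, against 30 with median centring. Of the 6224 measured locus-named probe sets, 3105 were above 0 on the deposited scale and 2935 with median centring. With loess it was 2981 of them, with quantile normalization 2869, and with centring on the hybridization controls 4728. The counts above and below 0 for groups of members below are to be read beside these. Centring on the hybridization controls, of which 17 of 18 were lower on the red light array, raises every log2 ratio by 0.30, so the members' median of 0.14 there lay below that of all measured locus-named probe sets, as on the deposited scale. With loess and quantile normalization the members' medians of 0.0098 and 0.00042 lay above those of all measured locus-named probe sets, -0.023 and -0.044. The members brighter than a geometric mean of 8000 lay lowest, with a median of -0.32 for 22 members, beside -0.11 for the other 104. On the deposited scale, lower ratios were not particular to the members. The 227 bright steady probe sets not listed in the annotation had a median of -0.16, with 65 above 0 and 162 below. Among non-ribosomal locus-named probe sets, members included, the median was 0.09 between geometric means of 102 and 250. It was -0.13 between 2000 and 4000 and -0.22 between 4000 and 8000. Counts for groups of members are to be read beside these values too. Directions for single genes below are on the deposited scale, and a log2 ratio between -0.30 and 0 lies above 0 on the scale of the hybridization controls.

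**Figure D1:**
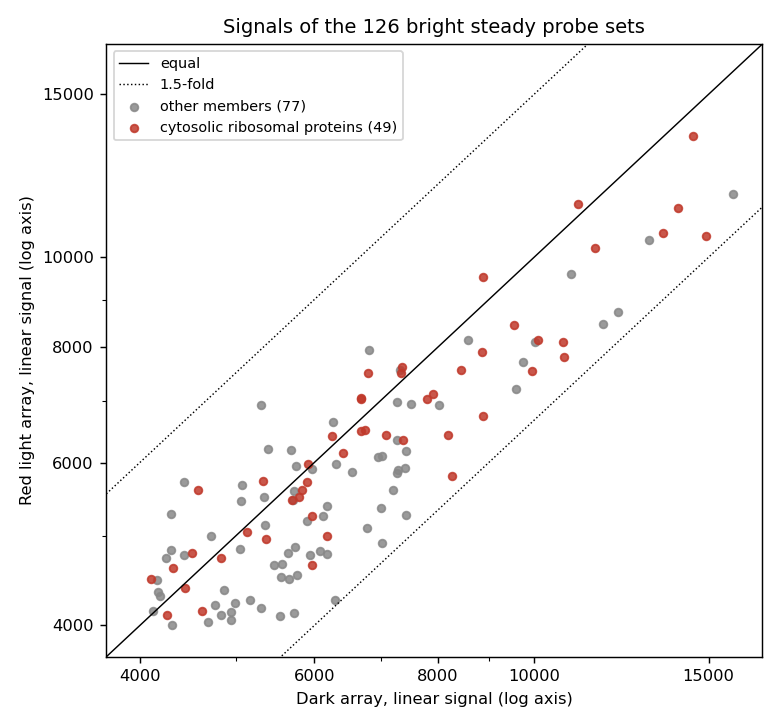
Each point is a member, with its linear signal on the dark array (horizontal, log axis) and on the red light array (vertical, log axis); the solid line marks equal signals and the dotted lines the 1.5-fold limits of the rule. The 49 cytosolic ribosomal proteins (red) spread over the whole range up to 13528 after red light, and the brightest members of either kind lie mostly below the line of equal signals.

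The largest group of members encoded proteins of the cytosolic ribosome, 49 of 126 or 38.9%, from 35 protein families. These were 17 genes of small subunit proteins, 29 of large subunit proteins and 3 of the acidic stalk, which helps elongation factors bind. Their red light signals had a median of 6432 and a range of 4110 to 13528, and their dark signals a median of 6745 and a range of 4102 to 14906. The list of 222 ribosomal loci behind this count was drawn up from general knowledge after the values were seen. The gene table names a ribosomal protein for 36 of these loci. Over all 11933 locus-named probe sets 128 were on the list, and over the 6224 measured ones 114 were. Apart from some short family lists, the other role groups below were not counted over all locus-named probe sets. Their sizes therefore do not show whether a function is more common among the members than elsewhere. Of the 49 members 14 had a ratio above 0 and 35 below on the deposited scale, but 34 were above 0 with loess, 32 with quantile normalization and 37 with centring on the hybridization controls. Over the 6224 measured locus-named probe sets the counts above 0 were 3105, 2981, 2869 and 4728 in that order.

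Of the 20 brightest members 13 were ribosomal. The brightest was AT1G52300, for large subunit protein L37, with signals of 13528 after red light against 14471 in the dark, a log2 ratio of -0.10. AT5G20290, for small subunit protein S8, gave 11291 and 13966, and AT5G56710, for L31, gave 10532 and 14906. The arrays thus lay close together for L37 and further apart for L31, whose log2 ratio was -0.50.

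AT3G05560, for L22, had signals of 10634 after red light against 13498 in the dark. AT4G29410, for L28, had 11403 and 11080, and AT2G34480, for L18a, had 9531 and 8884. L28 and L18a were the 2 of the 20 brightest members that were brighter on the red light array. AT3G06700, for L29, gave 10242 and 11530. AT5G15200, for S9, gave 8089 and 10701, and AT3G53890, for S21, gave 7803 and 10725. The dark array was the brighter for these 3 genes, and least so for L29.

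The rest of the 13 were AT3G60245 for L37a, AT2G19730 for L28, AT1G15930 for S12 and AT3G62870 for L7a. Their red light signals were 8130, 8444, 7543 and 7896 in that order, and their dark signals 10084, 9548, 9947 and 8867. All 4 were brighter on the dark array, with log2 ratios of -0.31, -0.18, -0.40 and -0.17.

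The 7 other genes among the 20 brightest had varied roles. AT1G09310 encodes a protein with a DUF538 domain of unknown function and reached the highest dark signal of the array, 15866, against 11712 after red light. AT1G54410 encodes the dehydrin HIRD11, a hydrophilic protein that binds metals, and gave 10428 and 13048. AT2G05540, for a glycine-rich protein, gave 9601 after red light against 10903 in the dark. All 3 were brighter on the dark array, and AT2G05540 differed least.

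AT1G51200, for an A20/AN1 zinc finger protein, had signals of 8733 after red light against 12140 in the dark. AT2G23090, of the small SERF family, had 8474 and 11743. AT2G32150, for a hydrolase of the haloacid dehalogenase class, had 7696 and 9734. These were again higher on the dark array. AT5G46020, for which no role is given here, had 8104 and 10019. Of the 20 brightest members 18 had a ratio below 0 on the deposited scale and with median centring, but 13 with loess, 11 with quantile normalization and 13 with centring on the hybridization controls.

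**Figure D2:**
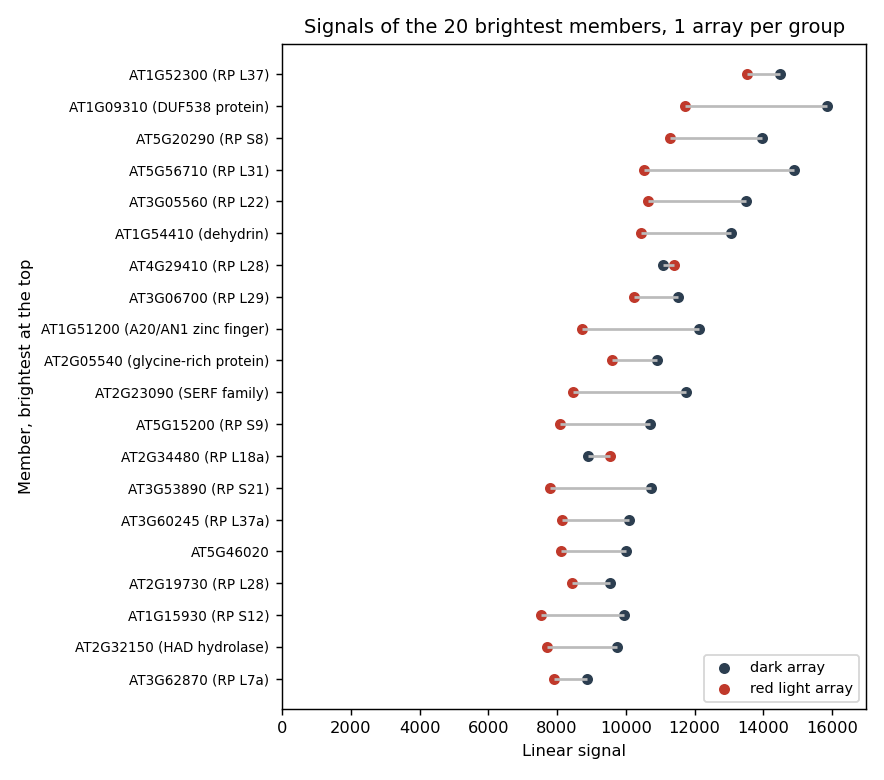
Linear signal (horizontal axis, from 0) of the 20 brightest members, ordered by mean log2 signal, on the dark array and on the red light array, with 1 array per group and no error bars; RP stands for ribosomal protein. On the deposited scale the dark array is the brighter for 18 of the 20 genes, the exceptions being AT4G29410 and AT2G34480; with loess it is the brighter for 13.

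Several ribosomal families had more than 1 bright gene. Of the 35 families among the members, 13 had at least 2 members, and family S7 had 3. For S7, a small subunit protein, the red light signals were 7493 for AT5G16130, 7034 for AT1G48830 and 5599 for AT3G02560, and the dark signals 6797, 6680 and 5830. The first 2 were a little brighter after red light and AT3G02560 a little brighter in the dark. Both S12 genes had nearly the same ratio, with log2 values of -0.40 for AT1G15930 and -0.40 for AT2G32060. The L31 genes did not: AT5G56710 had -0.50, AT4G26230 -0.04 and AT2G19740, not a member, 0.41, with signals of 3733 and 2816. Among families with more than 1 measured gene this was the widest range of log2 ratios, 0.91.

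The 3 stalk genes were AT3G09200 for P0, with signals of 7544 after red light against 8432 in the dark, and AT5G47700 and AT1G01100 for P1, with 4391 and 4445 and with 4150 and 4621. All 3 were slightly brighter on the dark array, but 2 lay above 0 with loess and quantile normalization and all 3 with centring on the hybridization controls. Among the ribosomal members the lowest ratio belonged to AT3G56340, for S26, with 5802 and 8261, and the highest to AT5G02450, for L36, with 5609 and 4578.

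The small subunit reads the messenger RNA. AT5G35530, for S3, which lies where the messenger enters, had signals of 5500 with red light and 5793 in darkness. AT4G34670, for S3a, had 7112 and 7898, and AT3G02080, for S19, had 6484 and 6682. These 3 were slightly brighter in darkness. AT3G47370, for S20, differed more, with 5004 and 6178. The S14 genes AT3G11510 and AT3G52580 had 5979 and 5907 and 4731 and 4826, and were almost equal on both arrays. The S25 genes AT4G39200 and AT2G21580, with 7610 and 7352 and with 4490 and 4102, were both brighter with red light.

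Large subunit proteins surround the site of peptide bond formation and the tunnel through which the new chain leaves. AT5G02870, for L4, which lines that tunnel, had 5252 with red light and 5970 in darkness, and AT1G67430, an L17 gene, had 7027 and 7796. AT4G02230, for L19, and AT2G44120, for L7, had 6429 and 8192 and 4651 and 5972. All 4 were brighter in darkness, and L19 and L7 were so by the most, with log2 ratios of -0.35 and -0.36. AT4G27090, for L14, AT3G53740, for L36, and AT3G16080, for L37, had log2 ratios of 0.03, 0.08 and 0.03. Of the large subunit members outside the stalk, the 11 not described by their own values had log2 ratios between -0.22, for AT3G49910 of L26, and 0.11, for AT3G24830 of L13a.

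Of the 222 listed ribosomal loci, 128 had a locus-named probe set. Each of these that reached 4000 on both arrays was a member, so the others of the 128 fell out by their signal and not by their ratio. Of the 128 probe sets, 114 were measured, 49 of them members and 65 not. Of these 65, 2 were past 1.5-fold or 3.08%, both higher after red light. Among 6033 other measured locus-named probe sets outside the members the share was 21.4%, with 12.7% higher and 8.67% lower. With centring on the hybridization controls, 12 of the 65 were past 1.5-fold beside 30.8% of the others, so the count depends on the scale. The 2 genes were AT1G15250, for L37, with signals of 1189 and 727, and AT4G30800, for S11, with 911 and 567.

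Among other loci the share past 1.5-fold was smaller in the brighter bands, so the comparison was also made within bands of signal. The bands were counted on the deposited scale only. With centring on the hybridization controls, where 12 of the 65 were past 1.5-fold, they were not counted, so the band counts may not hold there. Between geometric means of 2000 and 4000, none of 37 ribosomal probe sets was past 1.5-fold, beside 35 of 323 others, or 10.8%. Between 1000 and 2000 it was none of 10 beside 144 of 857, or 16.8%. Between 500 and 1000 it was 2 of 7 beside 264 of 1431, or 18.4%, so no lower share appeared in that band. Of the 14 listed probe sets that did not count as measured, several lay near background and their ratios ran from a log2 value of -3.35 to 2.52.

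**Figure D3:**
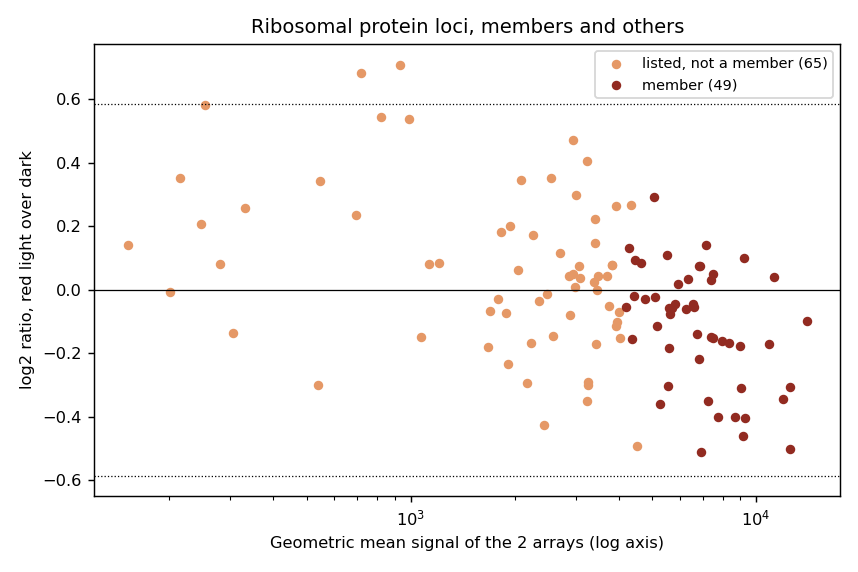
Log2 ratio of red light over dark (vertical) against the geometric mean signal (horizontal, log axis) for the 114 measured ribosomal loci; dark points are the 49 members, light points the 65 others, and dotted lines mark 1.5-fold. Only AT1G15250 and AT4G30800 lie outside the dotted lines on the deposited scale.

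The share of ribosomal loci among locus-named probe sets grew with the signal band. It was 0.235% from 102 to 250, 1.15% from 1000 to 2000, 10.3% from 2000 to 4000, 30% from 4000 to 8000 and 59.1% at 8000 and over. The last band held 22 probe sets, 13 of them ribosomal. These bands rank probe sets, not transcripts.

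**Figure D4:**
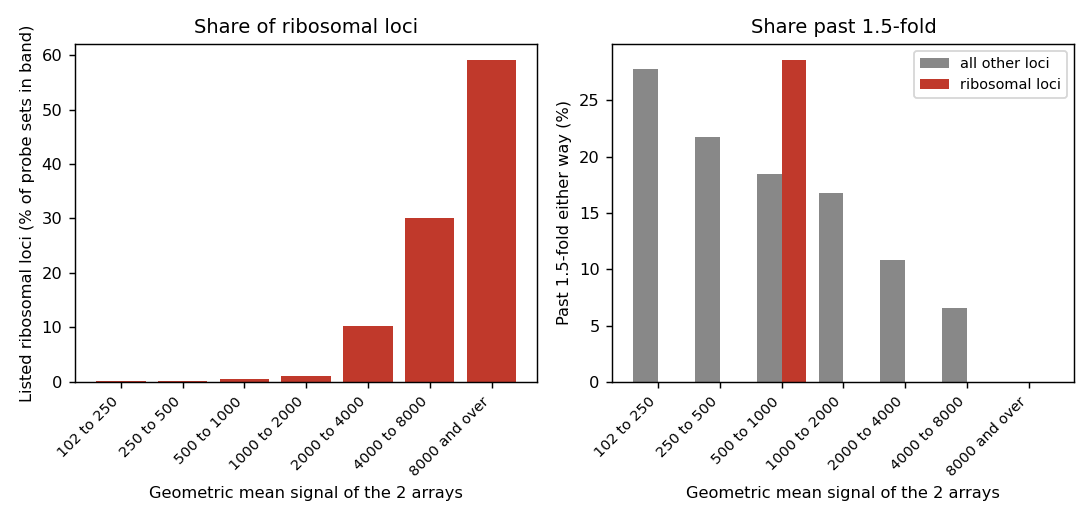
Left, the percent of measured locus-named probe sets that are listed ribosomal loci, by band of geometric mean signal; right, the percent past 1.5-fold either way for ribosomal loci and for all other loci in the same bands, members included. The ribosomal share rises to 59.1% in the brightest band, and the single ribosomal bar on the right is 2 of 7 probe sets. Both panels are on the deposited scale.

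Genes that act beside the ribosome formed a second group of 5 members. The nascent polypeptide-associated complex binds new chains as they leave the ribosome. Its alpha subunit genes AT3G12390 and AT4G10480 had signals of 5853 and 4516 after red light and 7265 and 5556 in the dark. Its beta subunit gene AT1G73230 had 5721 and 4431. The alpha genes were brighter on the dark array and the beta gene on the red light array, with log2 ratios of -0.31, -0.30 and 0.37. With centring on the hybridization controls 1 of the alpha genes moved just above 0. The other 4 of 7 genes listed for this complex had no probe set naming them alone.

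AT4G27130, for the translation initiation factor eIF1, had signals of 5593 after red light against 5721 in the dark. AT5G19510, for a subunit of the elongation factor eEF1B, which reloads eEF1A with GTP, had 5901 and 5966. For these 2 genes the arrays were almost equal.

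Nucleic acid binding proteins gave 7 members. AT1G29250, for an Alba-type protein, had 6983 after red light against 7275 in the dark. AT3G14100, for an RNA-binding protein with RNA recognition motifs, had 6084 and 6957. AT4G12600, of the L7Ae family of RNA-binding proteins, had 6637 and 6266, and was the highest of the 7 in its ratio. AT1G10590, with an OB fold, was the lowest, with 5599 and 7208. AT1G06760, for a linker histone H1, which binds DNA between nucleosomes, had 4789 and 5648. Of the 7 genes 3 lay above 0 on the deposited scale, 4 with loess and 6 with centring on the hybridization controls.

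Mitochondrial respiration was represented by 7 nuclear genes of small subunits. The electron transport chain passes electrons through complexes I, III and IV, and ATP synthase uses the resulting proton gradient. For complex I, AT3G03070 had 5190 after red light against 5902 in the dark. For complex III, AT3G52730 had 5510 and 5335, the only member of this group brighter on the red light array. The epsilon subunit of ATP synthase, AT1G51650, had 5464 and 5711.

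The 3 cytochrome c oxidase genes of complex IV, AT4G21105, AT4G37830 and AT2G47380, had red light signals of 4664, 4490 and 4232 and dark signals of 5570, 5659 and 4990. All 3 were brighter in the dark, with log2 ratios of -0.26, -0.33 and -0.24, though 2 lay above 0 with centring on the hybridization controls. The group as a whole had 1 ratio above 0 and 6 below on the deposited scale, and 6 above with centring on the hybridization controls.

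Genes of plastid proteins gave 3 members. AT1G74470, for geranylgeranyl reductase, which supplies the phytyl tail of chlorophyll and tocopherol, had 7945 after red light against 6814 in the dark. AT2G26500, for a small subunit of the cytochrome b6f complex, had 6191 and 5681. AT3G54210, for plastid ribosomal protein L17, had 6091 and 7028. The first 2 were brighter after red light and AT3G54210 in the dark, while all 3 lay above 0 with centring on the hybridization controls.

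The glycine cleavage system breaks glycine down in mitochondria and feeds one-carbon metabolism and photorespiration. Its T-protein gene AT1G11860 had 6924 after red light against 5306 in the dark, the highest ratio of all members with a log2 value of 0.38. Its H-protein gene AT1G32470 had 5283 and 4300, a log2 value of 0.30. Another gene of the system, not a member, AT2G35120 for another H-protein, had 1007 and 929. Of the 8 genes listed 3 had a probe set naming them alone, and all 3 were measured. These 3 were above 0 on the deposited scale, and on every other scaling tried. None was past 1.5-fold on the deposited scale, beside 20.8% of all measured locus-named probe sets. With centring on the hybridization controls 2 of them, AT1G11860 and AT1G32470, were past it. On that scale 30.8% of 6033 measured locus-named probe sets outside the members and the ribosomal list were past it too.

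A20/AN1 zinc finger proteins, known as stress-associated proteins, gave 3 members. AT1G51200 was described above. AT3G52800 had 5092 after red light against 6783 in the dark, and AT4G22820 had 4763 and 5936. All 3 were brighter on the dark array. Of the 10 genes listed for this family 5 had a probe set naming them alone, and all 5 were measured. All 5 had log2 ratios below 0, from -0.48 to -0.12, which held with median centring, loess and quantile normalization. With centring on the hybridization controls 2 of the 5 were above 0. None of the 5 was past 1.5-fold. Few non-ribosomal loci of such signals were past it on the deposited scale. The share was 10.8% between geometric means of 2000 and 4000, 6.59% between 4000 and 8000, and 0% at 8000 and over.

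Proteins of the plasma membrane and cell surface gave 9 members. Remorins are plasma membrane proteins of membrane domains. AT3G61260 had 5263 after red light against 7423 in the dark, and AT2G45820 had 4839 and 5048. Another remorin gene, AT5G23750, was no member, with 284 and 457, and was past 1.5-fold on the deposited scale. Between geometric means of 250 and 500, where it lies, 21.7% of non-ribosomal locus-named probe sets were past it on that scale. The 3 measured remorins of the 4 listed lay below 0 on the deposited scale, while 1 of them lay above 0 after loess, quantile normalization and hybridization control centring.

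AT4G16980, of the arabinogalactan proteins, which are heavily glycosylated proteins of the cell surface, had 6207 after red light against 5382 in the dark. A second probe set of the same gene gave 2913 and 2332, so both of its probe sets were brighter after red light, with log2 ratios of 0.21 and 0.32. This was 1 of 2 members with another probe set, the other being AT4G02480, whose other probe set did not count as measured.

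The other surface genes included the glycine-rich proteins AT4G29020, with 6933 and 7513, and AT4G21620, with 4772 and 4430. AT1G78040, of the Ole e 1 and extensin family, had 4809 and 6081. AT2G10940, of the lipid transfer and protease inhibitor family, had 4138 and 4941, and AT2G37130, for a class III peroxidase, had 4104 and 4831. Of these 5, only AT4G21620 was brighter on the red light array. Of all 9 surface genes 2 lay above 0 on the deposited scale, 5 with loess and 7 with centring on the hybridization controls.

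Hydrolases and protease inhibitors gave 7 members. AT5G44020, for an acid phosphatase of the haloacid dehalogenase class, had 4914 after red light against 7021 in the dark, among the 3 lowest ratios of all members with a log2 value of -0.51. AT1G29670, for a GDSL lipase, had 5972 and 6312. AT1G17860, for a Kunitz-type protease inhibitor, had 5671 and 5066, the highest ratio of the group. AT4G16190, for a papain-type cysteine protease, had 4997 and 4720. AT2G38870, for a protease inhibitor of the potato inhibitor I type, had 4143 and 4127, and its arrays were nearly equal.

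Stress and signalling genes gave 8 members, 7 of them below 0 on the deposited scale, 5 with centring on the hybridization controls. AT4G32060, for an EF-hand protein that regulates calcium uptake into mitochondria, had the lowest ratio of all members, with 4264 after red light against 6296 in the dark, a log2 value of -0.56. The endosulfine-type phosphoprotein genes AT1G69510 and AT5G64130 had 5886 and 4092 after red light and 7291 and 5543 in the dark. Endosulfines restrain a protein phosphatase in animals and yeast.

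AT3G53990 and AT3G17020, of the universal stress protein family, had 4531 and 4264 after red light and 5761 and 5169 in the dark. AT2G46600, for a small EF-hand calcium-binding protein, had 5855 and 6543. AT4G23670, of the Bet v 1 and major latex protein family, had 7546 and 7315. This last gene was the only one of the group that was brighter on the red light array.

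**Figure D5:**
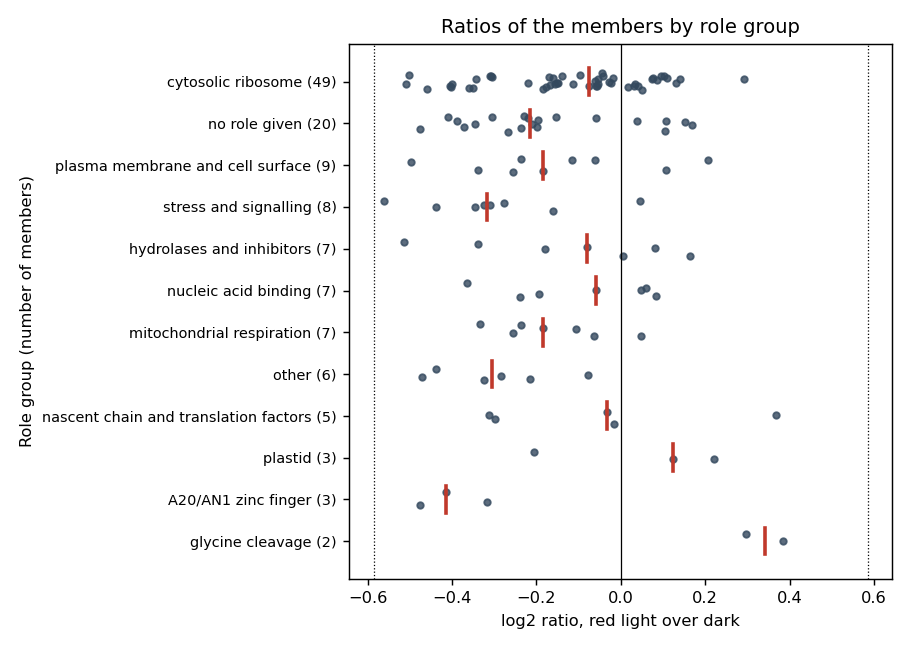
Log2 ratio of red light over dark for every member (points, spread vertically for sight), by role group with the number of members; red bars are medians, the dotted lines are the 1.5-fold limits of the rule, and 1 array per group means no error can be shown. The glycine cleavage genes lie above 0 and the A20/AN1 genes below it, on this scale and on every other tried, while most groups straddle 0.

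The median log2 ratio was -0.07 for the 49 ribosomal members and -0.21 for the 77 others. The difference was 0.13 on the deposited scale, 0.12 with loess and 0.13 with quantile normalization, and centring on a constant cannot change it. Within members under a geometric mean of 8000 the medians were -0.05 for 36 ribosomal and -0.19 for 68 other members. At 8000 and over they were -0.31 for 13 and -0.34 for 9. The spread among genes was larger than this difference, with SDs of 0.19 and 0.22 over the members of each kind, and no test was made since the rule bounds the ratios.

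The 6 members of no larger group all lay below 0 on the deposited scale, and 3 of them with centring on the hybridization controls. Besides those named above they were AT3G48140, for a B12D protein, with 8132 and 8581, and AT2G36930, for a C2H2 zinc finger protein, with 5916 and 7407.

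For 20 members no role is given. The brightest of them were AT5G46020, AT5G21020 with 7207 after red light against 9577 in the dark, AT3G07230 with 6926 and 8015, and AT5G49640 with 6340 and 7276. Of the 20, 5 had a ratio above 0 and 15 below on the deposited scale, with 14 above and 6 below on the scale of the hybridization controls.

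In the gene table of the TAIR10.1 assembly, 1 pair of members were direct neighbours, AT1G32460 and the glycine cleavage gene AT1G32470. AT1G32460, for which no role is given, had 4176 after red light against 5306 in the dark, while its neighbour was brighter after red light. The members lay on all nuclear chromosomes, with 30 on chromosome 1, 23 on 2, 34 on 3, 20 on 4 and 19 on 5. Neither the spread of all locus-named genes over the chromosomes nor the neighbours in other sets of this size were counted. The pair and these counts thus do not set the members apart from other genes.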

How the data were processed

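The deposited values are linear intensity values, 1 per probe set, for which the submitters' processing notes name MAS5, version 5. The sources used here do not give its scaling and background settings. Both arrays had a trimmed mean of 500.0, leaving out 2% of probe sets at either end, and no further scaling was applied. Probe sets were named from the array annotation, and all 126 members matched the TAIR10.1 gene table, which was used for names and neighbours only.

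The red over dark ratio was taken on the log2 scale with no pseudocount. Measured means a mean log2 signal at or above the 40th percentile of non-control probe sets. With 1 array per group no test exists, the number of arrays limits the precision, and differences are described by size. The selection of members was run on simulated data with the deposited scale, median centring, loess and quantile normalization. Centring on the hybridization controls and the ribosomal comparisons were not part of that run.

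The members, lists and role groups were chosen with earlier results of these data known. The tables hold no descriptions, so roles come from general knowledge of the loci, except AT1G54410 and AT1G74470, which the gene table names. The role groups replace planned counts of function classes. Genes were named by rule: the 20 brightest members, those next to a limit, the highest and lowest ratios and the brightest of each group. Others were chosen after their values were seen. Promoter motifs and protein lengths were planned and not run, since no sequences were used here. Python 3.11.15, numpy 2.4.6, pandas 2.3.3, statsmodels 0.14.6 (loess, span 0.3) and matplotlib 3.10.9 were used.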

Additional observations from a re-analysis of the deposited data

Results flagged for a closer look

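Among bright steady probe sets 227 are not listed in the annotation used here, and above only their ratios are set beside those of the members. They make up 54.6% of the 416 bright steady probe sets. Their red light signals ran from 4034 to 11608 and their dark signals from 4020 to 15364, with a median log2 ratio of -0.16.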

How the results depend on the processing

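No paired analysis was possible because 1 array stands for each group. The ribosomal counts and the comparison of medians were added after seeing the data. Against 126 members, the count was 218 at a signal limit of 3000, 81 at 5000 and 17 at 8000. It lay between 95 and 129 under the other settings, and 15 of the 126 left with centring on the hybridization controls. The 49 ribosomal members became 10 at the limit of 8000 and stayed within 39 to 67 otherwise. The median log2 ratio of -0.16 was -0.12 at 3000, -0.31 at 8000, -0.20 with median centring, 0.0098 with loess, 0.00042 with quantile normalization and 0.14 with hybridization control centring, so its sign depends on the scale. The difference between ribosomal and other members was 0.12 with loess. The 2 ribosomal loci outside the members past 1.5-fold became 12 with hybridization control centring and 13 of 79 with no filter, beside 30.8% and 40.4% of other loci. The causes were not tested. Promoter motif shares and protein lengths were not run.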
